A study of Mus musculus with 10 samples.

Results

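The comparison described here is between Sertoli cells from 6-day-old mice (6 days post partum, dpp) given 50 ng activin and cells of the same age given 5 ng. The members are 4 of the 10 arrays of the series, chosen by their titles: 2 arrays with 50 ng and 2 with 5 ng. The other 6 arrays held untreated cells of 6 dpp (0 ng), and cells of 15 dpp given 0 or 5 ng, with 2 arrays in each group. Those 6 arrays entered the normalisation, the choice of probe sets and the estimate of the spread, and the untreated cells of 6 dpp are given beside some genes as the 0 ng level. The labels give the dose in ng with no volume, and give no strain, culture time or sorting step. Whether the replicates of a dose are separate animals or cultures is not stated, so the p-values reflect just the spread among these arrays, and that spread may be technical. All differences are 50 ng minus 5 ng, and n = 2 arrays in each group applies throughout.

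Sertoli cells are the somatic supporting cells inside the seminiferous tubule. They divide in fetal and early postnatal life and then stop, form tight junctions and support germ cells. Activin is a dimer of inhibin beta subunits. It binds a type II receptor (Acvr2a or Acvr2b), which activates a type I receptor (mainly Acvr1b), and this phosphorylates SMAD2 and SMAD3. The phosphorylated SMADs join SMAD4 and act on genes in the nucleus, while follistatin and related proteins bind activin outside the cell. The series is about how these cells use SMAD2 and SMAD3 as they mature, and the step from 5 to 50 ng asks what a larger dose adds to a smaller one.

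The 4 arrays were close to each other. Across 12405 genes, the correlation was 0.990 between the 5 ng arrays, 0.987 between the 50 ng arrays and 0.985 to 0.988 between arrays of different dose. The 5 ng arrays differed over 2-fold at 35 genes, the 50 ng arrays at 54 genes, and pairs of different dose at 51 to 80 genes. Median signals ran from 30.7 to 35.3 over these 4 arrays. The ratio of the 3' to the 5' control probe set was between 0.722 and 0.776 for Gapdh and between 1.29 and 1.32 for actin, and the doses overlapped for Gapdh but not for actin. For pyruvate carboxylase it was 4.40 and 3.81 at 5 ng and 5.32 and 4.26 at 50 ng. The middle probe set of 18S ribosomal RNA read 134 and 114 at 5 ng and 64.4 and 75.4 at 50 ng, so the doses did not overlap there. What part RNA quality has in the differences below was not tested. Markers of Sertoli cells were present in both doses, among them the transcription factor Sox9 at 629.8 and 561 with 5 ng and 577 and 447 with 50 ng, and Wt1 at 538 and 528 at 5 ng and 489 and 478 at 50 ng. Germ cell, myoid and fibroblast markers were also measured, with Ddx4 at 297 and 268 at 5 ng and 314 and 296 at 50 ng, Acta2 at 3984 and 4271 at 5 ng and 4124 and 3763 at 50 ng, and Pdgfra at 1634 and 1740.2 at 5 ng and 1373 and 1723 at 50 ng. The arrays therefore did not read Sertoli cells alone, and in such bulk samples fewer cells of a type and less RNA per cell cannot be told apart.

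A gene was called where limma's moderated test over all 10 arrays gave a Benjamini-Hochberg adjusted p under 0.05. Of 12405 genes, 5 were called, or 0.0403%. Pmm1, Uroc1 and Crcp rose and Cited1 and Rpl39 fell between 5 and 50 ng. At an unadjusted p under 0.05 there were 670 genes higher at 50 ng (5.40%) and 489 lower (3.94%). The median log2 change over all genes was 0.02, and changes ran from -1.34 to 1.64. A log2 change over 1, a doubling, was measured at 11 genes and one under -1 at 6. When only the 4 arrays of the comparison were fitted, limma called 0 genes, with 1092 genes at an unadjusted p under 0.05 and a lowest adjusted p of 0.089. Over all 10 arrays without the intensity trend of the fit it also called 0 genes, with 1080 at an unadjusted p under 0.05, whereas the 4 arrays with the replicate number as a block gave 219 calls with the 5 genes among them. The calls below are those of the fit to all 10 arrays.

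**Figure D1:**
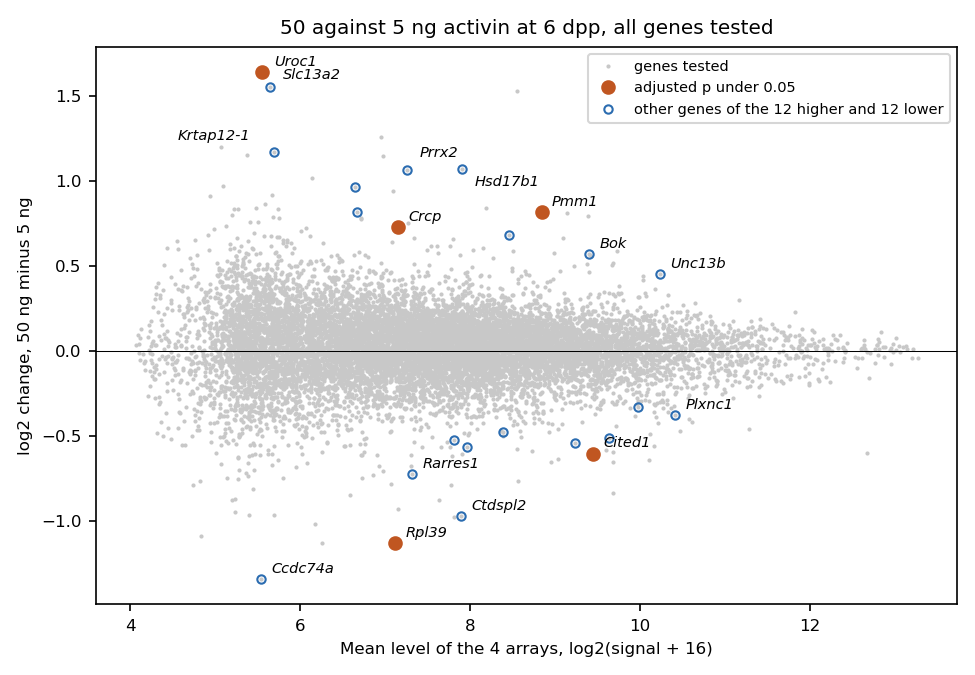
Log2 change from 5 to 50 ng (vertical axis) against the mean level of the 4 arrays, log2(signal + 16) (horizontal axis), for the 12405 genes tested as grey points. Filled orange points are the 5 called genes and open blue circles the other genes with the smallest p in each direction; most genes lie close to a change of 0, and the spread widens toward low levels.

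Pmm1 encodes phosphomannomutase 1, which can convert mannose 6-phosphate to mannose 1-phosphate, a precursor of protein glycosylation. Its deposited signal was 296 and 287 without activin, 313 and 319 with 5 ng and 597 and 546 with 50 ng. The 50 ng arrays stood above all 4 others, while the 0 and 5 ng arrays were close to each other. The means were 316 ± 4.25 (SD) and 571 ± 36.0, a log2 change of 0.82 ± 0.08 (SE), or 1.76-fold, with an adjusted p of 0.0021 by limma. A second Pmm1 probe set read 226 and 206 at 5 ng and 371 and 358 at 50 ng, a log2 change of 0.74. The Pmm1 call was lost in the fit to the 4 arrays (adjusted p = 0.089) and without replicate 1 of the 5 ng group (adjusted p = 0.069).

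Cited1 encodes a transcriptional coregulator that binds CBP and p300 and is known as a partner of SMAD4. Its signal was 845 and 955 at 0 ng, 796 and 850.1 at 5 ng and 541 and 543 at 50 ng. Both 50 ng arrays lay below the other 4, and the 0 and 5 ng arrays overlapped. This was a log2 change of -0.60 ± 0.08, with an adjusted p of 0.046, and 0.14 with the 4 arrays alone. Without any single array of the comparison the adjusted p was 0.075 to 0.22, and without either untreated 15 dpp array it was 0.089 or 0.090.

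Rpl39, which encodes a small protein of the large ribosomal subunit, read 137 and 122 at 0 ng, 194 and 155 at 5 ng and 79.3 and 62.7 at 50 ng. The 5 ng arrays were the highest, the untreated arrays lay between, and the 50 ng arrays were the lowest, without overlap. The log2 change was -1.13 ± 0.16, with an adjusted p of 0.046, and 0.17 with the 4 arrays alone. The adjusted p was above the threshold without any single array of the 10, at 0.051 to 0.30. Rpl39 has near-identical copies elsewhere in the genome that a probe set may also read.

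Uroc1 encodes urocanase, an enzyme of histidine breakdown. It was read at 38.0 and 26.4 at 0 ng, 6.70 and 6.65 at 5 ng and 52.3 and 57.6 at 50 ng. The 5 ng arrays were the lowest, under the filter's signal of 18.4, and the 50 ng arrays the highest. Since the 5 ng arrays give no level above that signal, the size of the change is set by the pseudocount: it was 1.64 ± 0.24 on the log2(signal + 16) scale, and 2.87 or 0.75 with a pseudocount of 1 or 64. The adjusted p was 0.046, and 0.089 with the 4 arrays alone. The second Uroc1 probe set lay below the filter on low levels and read 7.63 and 9.21 at 5 ng and 1.55 and 3.43 at 50 ng, the opposite direction. The call was lost without any single array of 6 dpp or any 15 dpp array with 5 ng, at adjusted p of 0.056 to 0.22. It held without either untreated 15 dpp array.

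Crcp encodes a protein that serves both as a subunit of RNA polymerase III and as a component of the receptor for calcitonin gene-related peptide. It read 144 and 133 at 0 ng, 93.8 and 91.0 at 5 ng and 163 and 156 at 50 ng. The 5 ng arrays stood apart below the other 4, and the 50 ng arrays lay above the untreated ones. From 5 to 50 ng this gave 0.73 ± 0.11 on the log2 scale, with an adjusted p of 0.046, and 0.19 with the 4 arrays alone. Leaving out any single array of the 10 gave an adjusted p of 0.056 to 0.22.

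**Figure D2:**
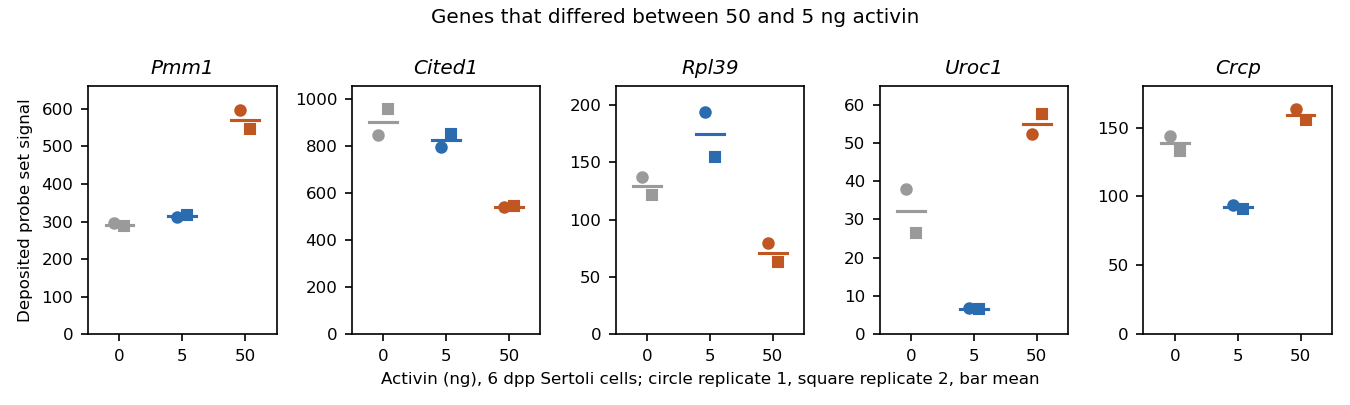
Deposited signal (vertical axis, linear, from 0) of the 5 called genes in 6 dpp cells at 0, 5 and 50 ng activin (horizontal axis); circles are replicate 1, squares replicate 2 and bars the mean of the 2 arrays. For Pmm1 and Cited1 the 50 ng arrays stand apart from the other 4, and for Uroc1 and Crcp the 5 ng arrays are the lowest.

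The 5 genes thus had unlike orders of the 3 doses. The untreated mean was outside the 5 and 50 ng means, on the side of 5 ng, for Pmm1 and Cited1, and between them for Rpl39, Uroc1 and Crcp. These orders are a description, since the same 5 ng arrays enter both steps.

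SMAD3 and SMAD4 bind the short DNA motif CAGAC, which reads GTCTG on the other strand. The 250 bases before the RefSeq start sites (GRCm38.p6) were searched for it on both strands, and 4 of the 5 called genes had such a window. Windows of Pmm1, Rpl39 and Uroc1 and 1 of the 3 Cited1 start sites held no match. The other 2 Cited1 start sites each held 2 matches, at 228 and 67 bases and at 244 and 116 bases before the start. Among 32851 windows of all genes, 42.2% held at least 1 match and 11.7% at least 2, so the motif is common. A match describes the letters and is no evidence of binding. The windows of Pmm1, the gene with the smallest p, and of the 2 Cited1 start sites with matches are shown from 5′ to 3′, with matches in capitals. They lie on the minus strand at chr15:81960931-81961180, chrX:102251844-102252093 and chrX:102250777-102251026.
Pmm1: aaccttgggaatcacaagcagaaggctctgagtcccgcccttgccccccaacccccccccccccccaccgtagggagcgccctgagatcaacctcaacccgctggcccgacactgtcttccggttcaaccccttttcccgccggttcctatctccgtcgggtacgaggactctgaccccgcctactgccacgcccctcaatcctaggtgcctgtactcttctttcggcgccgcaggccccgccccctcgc
Cited1, start site 2: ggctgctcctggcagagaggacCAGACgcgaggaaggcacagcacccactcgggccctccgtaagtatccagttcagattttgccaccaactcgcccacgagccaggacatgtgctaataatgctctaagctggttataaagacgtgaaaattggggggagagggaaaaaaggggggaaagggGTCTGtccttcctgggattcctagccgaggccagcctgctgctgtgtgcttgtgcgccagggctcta
Cited1, start site 3: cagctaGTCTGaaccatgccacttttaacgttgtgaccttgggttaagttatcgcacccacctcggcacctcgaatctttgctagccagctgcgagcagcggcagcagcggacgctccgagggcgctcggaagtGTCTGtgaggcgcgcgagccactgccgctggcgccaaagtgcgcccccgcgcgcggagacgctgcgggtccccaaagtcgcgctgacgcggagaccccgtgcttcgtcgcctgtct

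The genes next in line were taken as the 12 higher and 12 lower genes with the smallest p among those whose arrays did not overlap and whose mean signal reached 50 in either group. Arrays did not overlap at 2484 genes higher at 50 ng (20.0%) and 1798 lower (14.5%), so absence of overlap was common. Of the 24 genes, 19 were not called, with adjusted p between 0.061 and 0.089. In 13 of the 24 the untreated mean lay beyond the 5 ng mean, and in 11 it lay between the doses. The untreated mean was nearer to the 5 ng mean in 19 of the 24. The genes were chosen for a difference between these same 5 and 50 ng arrays, and the same counts over all genes were not taken. These counts of the untreated mean are therefore a description.

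Among the 9 higher genes that were not called, Hsd17b1 had the smallest p. It encodes the 17-beta hydroxysteroid dehydrogenase that turns estrone into estradiol. Its signal was 72.9 and 69.1 at 0 ng, 124 and 161 at 5 ng and 276 and 338 at 50 ng, with no overlap between any of the doses. From 5 to 50 ng the log2 change was 1.07 ± 0.17, with an adjusted p of 0.061. The homeobox gene Prrx2 had the same order, at 59.5 and 57.2 at 0 ng, 74.8 and 96.4 at 5 ng and 176 and 203 at 50 ng, a log2 change of 1.06 ± 0.17 (adjusted p = 0.062). Bok, a BCL2 family gene that promotes apoptosis, read 404 and 399.6 at 0 ng, 498 and 554 at 5 ng and 766 and 834 at 50 ng, a log2 change of 0.57 ± 0.09 (adjusted p = 0.062). In these 3 genes the mean was higher at each dose.

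Unc13b, a regulator of vesicle priming, and Slc13a2, a carrier of dicarboxylates, were highest at 50 ng. Unc13b read 965 and 811 at 0 ng, 982 and 1005 at 5 ng and 1347 and 1418 at 50 ng, a log2 change of 0.45 ± 0.08. Slc13a2 was low without a high dose, at 10.3 and 2.48 with 0 ng and 3.93 and 16.6 with 5 ng, and read 57.9 and 58.6 with 50 ng. Its 5 ng arrays lay under the filter's signal of 18.4, so its log2 change of 1.55 ± 0.26 depends on the processing, and ran from 0.73 to 2.67 over the alternatives. Chtf8, which loads the replication clamp onto DNA as part of a complex, and the keratin-associated gene Krtap12-1 were low at 5 ng only. Chtf8 read 411 and 378 at 0 ng, 244 and 264 at 5 ng and 471 and 363 at 50 ng, so its 0 and 50 ng arrays overlapped. Krtap12-1 read 50.6 and 56.0 at 0 ng, 11.8 and 20.4 at 5 ng and 49.5 and 60.6 at 50 ng, and its 0 and 50 ng arrays overlapped too. Nudt18 and Trim62 had log2 changes of 0.82 ± 0.14 and 0.97 ± 0.17, and for Trim62 only 1 of 2 probe sets above the filter had that sign.

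Among the 10 lower genes that were not called, Rarres1, a gene that responds to retinoic acid, had a clear order of doses. Its signal was 265 and 268 at 0 ng, 196 and 172 at 5 ng and 109 and 99.4 at 50 ng. From 5 to 50 ng the difference was -0.73 ± 0.12 on the log2 scale, with an adjusted p of 0.062. Slc52a3, a riboflavin carrier, ran the same way at 346 and 315 at 0 ng, 257 and 242 at 5 ng and 152 and 187 at 50 ng, a log2 change of -0.52 ± 0.10. In both genes each dose was lower than the last without overlap.

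Stom, which encodes the membrane protein stomatin, read 305 and 306 at 0 ng, 295 and 270.2 at 5 ng and 182 and 192 at 50 ng, a log2 change of -0.57 ± 0.10 that all 5 of its probe sets shared in sign. Agpat4, an acyltransferase of phospholipid synthesis, read 1122 and 1102 at 0 ng, 1114 and 1079 at 5 ng and 913 and 871 at 50 ng. Atp1b2, a beta subunit of the sodium and potassium pump, read 854 and 833 at 0 ng, 897 and 939 at 5 ng and 602 and 692 at 50 ng. In these 3 genes the 50 ng arrays alone were low. Jakmip1 and Plxnc1, a plexin receptor for semaphorins, had smaller values of -0.48 ± 0.09 and -0.38 ± 0.07, and all 5 Plxnc1 probe sets had that sign. St3gal5, the sialyltransferase that makes the ganglioside GM3, was high at 5 ng only, with 496 and 488 at 0 ng, 708 and 682 at 5 ng and 443 and 508 at 50 ng.

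For 2 of the lower genes the probe sets disagreed. Ccdc74a read 56.0 and 44.9 at 5 ng and 5.61 and 15.1 at 50 ng, where both arrays lay under the filter's signal of 18.4. Its log2 change of -1.34 ± 0.21 ran from -2.30 to -0.34 over the alternatives, and only 2 of its 4 probe sets had that sign. Ctdspl2 read 310.4 and 284 at 5 ng and 184 and 114 at 50 ng, a log2 change of -0.97 ± 0.18, and 1 of its 3 probe sets had that sign.

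The activin pathway itself was covered by 49 tested genes in 4 lists, for which limma called 0. At an unadjusted p under 0.05, 8 of the 49 were higher and 3 lower at 50 ng, where 5.40% and 3.94% of all genes were. The median log2 change of the 49 was 0.00. Among the 11 ligand subunits, 0 were called, and the median was -0.13 against 0.02 for all genes. Past an unadjusted p of 0.05, 1 was lower (9.09%, against 3.94% of all genes) and 0 were higher. That gene was Inhbb, the beta B subunit of activin and inhibin B, with 1908 and 1837 at 5 ng and 1590.4 and 1564 at 50 ng. The 50 ng arrays lay below both 5 ng arrays, with a log2 change of -0.25 ± 0.09 and an adjusted p of 0.46. The beta A subunit gene Inhba read 589.5 and 605 at 5 ng and 505 and 588 at 50 ng, and the alpha subunit gene Inha 1805 and 2032 at 5 ng and 1786 and 2281 at 50 ng; both overlapped between the doses. The log2 change of Inha was 0.04 ± 0.11, with a 95% confidence interval of -0.19 to 0.28. Amh, the anti-Müllerian hormone of immature Sertoli cells, read 79.7 and 77.5 at 5 ng and 65.6 and 53.4 at 50 ng, a log2 change of -0.30 ± 0.27 (adjusted p = 0.77).

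The 7 genes listed as secreted antagonists were not all antagonists of activin, since Ltbp3 was among them, and 0 were called. Fstl3 and Ltbp3 were the 2 higher genes at an unadjusted p under 0.05 (28.6%, against 5.40% of all genes), and 0 were lower. Fstl3, a follistatin-like protein that binds activin, read 187 and 133 at 0 ng, 219 and 175 at 5 ng and 382 and 330.4 at 50 ng. Both 50 ng arrays stood above all the others, while the 0 and 5 ng arrays overlapped. This was a log2 change of 0.84 ± 0.16, with an adjusted p of 0.089. Fst, follistatin itself, read 457 and 403 at 5 ng and 501 and 356 at 50 ng and overlapped fully, with a log2 change of -0.03 and a 95% confidence interval of -0.46 to 0.40. A second Fst probe set read 311 and 241 at 5 ng and 231 and 205 at 50 ng, without overlap, a log2 change of -0.31. Ltbp3, which holds latent TGF-beta in the matrix, had a log2 change of 0.34 ± 0.15, with all 4 probe sets of that sign.

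Among 13 receptors and co-receptors, 0 were called, and the median was -0.05. Past an unadjusted p of 0.05, 1 was lower (7.69%, against 3.94% of all genes) and 0 were higher. The 1 was Amhr2, the receptor of anti-Müllerian hormone, at 3029 and 3317 with 0 ng, 2629.6 and 3076 with 5 ng and 1844 and 2393 with 50 ng. Its 50 ng arrays lay below the other 4, with a log2 change of -0.46 ± 0.13 (adjusted p = 0.29), and all 3 probe sets had that sign. The activin type II receptors Acvr2a and Acvr2b had 95% confidence intervals on both sides of 0, -0.26 to 0.22 and -0.32 to 0.32. For the type I receptor Acvr1b the log2 change was 0.26 ± 0.12, and its arrays overlapped between the doses. The TGF-beta receptors Tgfbr1, Tgfbr2 and Tgfbr3 had values of -0.16, -0.05 and -0.25.

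The SMAD proteins and their regulators formed the list of the pathway with most values above 0: 15 of 18 were positive, with a median of 0.12, and 0 were called. At an unadjusted p under 0.05, 6 were higher (33.3%, against 5.40% of all genes) and 1 was lower (5.56%, against 3.94%). Without 1 array of the comparison the higher count was 2 to 4. Smad2 read 384 and 419.7 at 5 ng and 464 and 465 at 50 ng, a log2 change of 0.20 ± 0.11. Smad3 went the other way at 393 and 428 at 5 ng and 319.7 and 355 at 50 ng, a log2 change of -0.27 ± 0.12, with all 3 probe sets of that sign. Neither gene overlapped between the doses, and the adjusted p was 0.62 for Smad2 and 0.54 for Smad3. The common partner Smad4 had a log2 change of 0.05 ± 0.09.

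The inhibitory Smad7, a feedback gene of the pathway, had a higher mean at each dose, at 122 and 145 at 0 ng, 185 and 223 at 5 ng and 242 and 270.0 at 50 ng. Its log2 change from 5 to 50 ng was 0.33 ± 0.19 (adjusted p = 0.63). A second Smad7 probe set had 0.71 but not that order of doses. It read 47.8 and 51.8 at 0 ng, 33.1 and 40.2 at 5 ng and 56.4 and 80.4 at 50 ng. The inhibitory Smad6 had a log2 change of 0.40 ± 0.18. The repressor gene Skil read 576 and 590.5 at 0 ng, 553 and 577 at 5 ng and 698 and 672 at 50 ng, a log2 change of 0.25 ± 0.10 (adjusted p = 0.48). The related corepressors Tgif1 and Tgif2 had values of opposite sign, 0.25 ± 0.10 and -0.40 ± 0.08. Tgif2 had the smallest p of the list (adjusted p = 0.089) and was high at 5 ng only, with 389 and 393 at 0 ng, 491 and 496 at 5 ng and 369 and 374 at 50 ng, but 1 of its 2 probe sets had the other sign. The ubiquitin ligase gene Smurf2 and the coactivators Yap1 and Wwtr1 had values of 0.24, 0.29 and 0.15, each higher at an unadjusted p under 0.05. For Wwtr1, 1 of 3 probe sets had that sign.

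**Figure D3:**
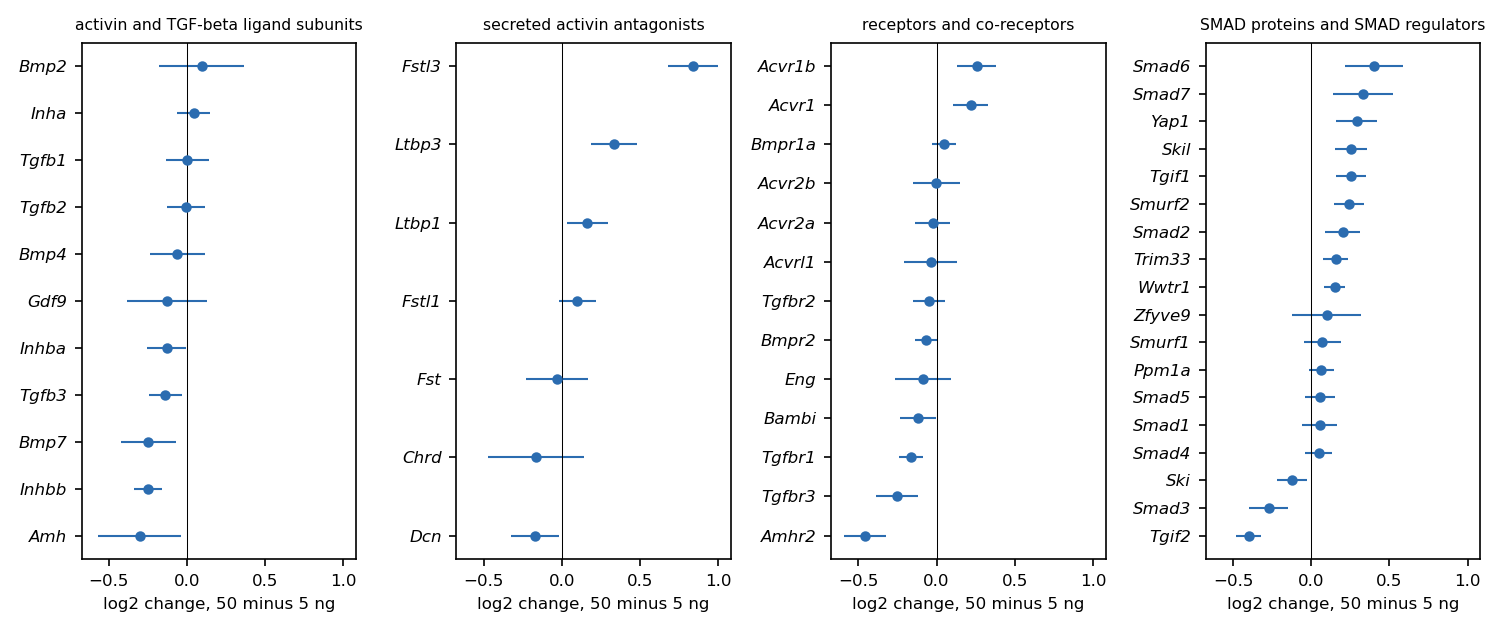
Log2 change from 5 to 50 ng (horizontal axis, points) with its standard error (bars) for the 49 tested genes of the activin pathway, grouped as ligand subunits, secreted antagonists, receptors and SMAD proteins with their regulators. Fstl3 lies farthest to the right at 0.84, and 15 of the 18 SMAD proteins and regulators lie to the right of 0.

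Genes known to respond to SMAD2 and SMAD3 had values in both directions: of 23 tested, 0 were called, and the median was 0.09. Of these, 4 were higher (17.4%, against 5.40% of all genes) and 2 lower (8.70%, against 3.94%) at an unadjusted p under 0.05. The higher genes Fstl3, Tgif1 and Skil are counted above too, Fstl3 among the antagonists and Tgif1 and Skil among the SMAD regulators. The lower gene Col1a1 is also a matrix gene. The counts of these lists are therefore not separate. Without replicate 1 of the 50 ng group 1 was higher and the median was 0.02. Col1a1, a collagen gene often raised by TGF-beta, had a negative value, at 1179.8 and 1225 at 0 ng, 1671 and 1753 at 5 ng and 1133 and 1497 at 50 ng. Its log2 change was -0.40 ± 0.14 (adjusted p = 0.42), and 1 of 2 probe sets had that sign. Of 8 genes that respond to bone morphogenetic proteins, 0 were called; Id1, Id2 and Id3 had values of -0.23, -0.19 and -0.31, and Smad6, given above, was the only one at an unadjusted p under 0.05.

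Ccnd2 and Gja1 are genes of Sertoli cell division and of gap junctions. Ccnd2, cyclin D2, was ordered by dose without overlap: 1546 and 1559 at 0 ng, 2008 and 1987 at 5 ng and 2449 and 2719 at 50 ng. All 7 of its probe sets were higher at 50 ng. Its log2 change was 0.30 ± 0.35, with an adjusted p of 0.83 in the fit to all 10 arrays and 0.33 in the fit to the 4 arrays. Gja1, connexin 43, read 2372 and 2796 at 5 ng and 2753 and 3192 at 50 ng, which overlapped, with a log2 change of 0.14 ± 0.23. All of its probe sets were higher at 50 ng, with log2 changes of 0.08 to 0.31. The one with 0.31 read 1240.6 and 1302 at 5 ng and 1454.5 and 1797.5 at 50 ng. Cited2, the relative of Cited1, read 1107 and 1241 at 5 ng and 1145 and 1134 at 50 ng, which overlapped. On a second probe set Cited2 read 614 and 660.1 at 5 ng and 472 and 579 at 50 ng, without overlap, a log2 change of -0.27.

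Of 23 Sertoli cell identity genes, 0 were called, 4 were lower at an unadjusted p under 0.05 (17.4%, against 3.94% of all genes) and 0 were higher, and the median was -0.03. The lower count was 1 without replicate 1 of the 5 ng group, 2 without its replicate 2 and 4 without either 50 ng array. Cst9, a cystatin gene, read 1083 and 984 at 0 ng, 873 and 956 at 5 ng and 572 and 653 at 50 ng. Both 50 ng arrays were below all the others, with a log2 change of -0.58 ± 0.15 (adjusted p = 0.22). The related Cst12 and the abundant Aard had smaller values of -0.18 ± 0.06 and -0.20 ± 0.07; both read highest at 0 ng and lowest at 50 ng. The fourth was Inhbb, described above.

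Of 20 maturation genes, 4 were lower (20.0%, against 3.94% of all genes) and 1 was higher at an unadjusted p under 0.05, with a median of -0.08 and 0 calls. The lower genes were Cst9, Cst12, Cldn11 and Cdkn1b. Each is counted in another list too: Cst9 and Cst12 among the identity genes, Cldn11 among the junction genes and Cdkn1b among the G1 regulators. The lower counts of these lists are therefore not separate. Without 1 array of the comparison the lower count ran from 2, without replicate 2 of the 5 ng group, to 5, without replicate 2 of the 50 ng group. The higher gene was Serpina5, which encodes the inhibitor of activated protein C and is made in the male reproductive tract. It read 298 and 269 at 0 ng, 376 and 412 at 5 ng and 678 and 739 at 50 ng, ordered by dose without overlap. The log2 change was 0.81 ± 0.15, with an adjusted p of 0.080, and 0.089 with the 4 arrays alone.

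Tight and adherens junction genes had 0 calls among 26, and a median of -0.10. Among them 5 were lower (19.2%, against 3.94% of all genes) and 1 higher at an unadjusted p under 0.05. Without 1 array of the comparison the lower count ran from 1, without replicate 1 of the 5 ng group, to 8, without replicate 2 of that group. Cldn11, the main claudin of the Sertoli cell barrier, read 2174 and 1858 at 0 ng, 1938 and 1599.8 at 5 ng and 1451 and 1204 at 50 ng. The 50 ng arrays were lowest, without overlap, at a log2 change of -0.42 ± 0.10 (adjusted p = 0.17). Cingulin, Cgn, and occludin, Ocln, which also belong to tight junctions, had values of -0.46 ± 0.14 and -0.29 ± 0.10. Cldn4 had the opposite sign, 0.41 ± 0.17, at low signals of 33.9 and 32.4 at 5 ng and 40.4 and 56.8 at 50 ng.

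Of 17 retinoid genes, 0 were called, 11 had positive values and the median was 0.02, as for all genes. Yet 5 were lower at an unadjusted p under 0.05 (29.4%, against 3.94% of all genes) and 0 higher (against 5.40%). Aldh1a2, which makes retinoic acid, read 514 and 462 at 5 ng and 394 and 355 at 50 ng, a log2 change of -0.37 ± 0.12. Cyp26b1, which breaks retinoic acid down, was low on all arrays, 48.4 and 58.3 at 5 ng and 36.6 and 15.5 at 50 ng, with -0.75 ± 0.25. The retinol reductase gene Rdh11 had a log2 change of -0.33 ± 0.10, and Rarres1 is given above. Without 1 array of the comparison the lower count was 2 to 4.

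Of 15 genes of steroid synthesis and conversion, 0 were called, and 2 were higher (13.3%, against 5.40% of all genes) and 0 lower at an unadjusted p under 0.05. Beside Hsd17b1, this was Star, the carrier of cholesterol into mitochondria, at 61.5 and 62.0 at 5 ng and 71.7 and 82.2 at 50 ng, a log2 change of 0.29 ± 0.12. Hsd17b3, which makes testosterone, was ordered by dose at 290.4 and 389 at 0 ng, 593 and 666 at 5 ng and 693 and 902 at 50 ng, with a log2 change of 0.31 ± 0.21 from 5 to 50 ng (adjusted p = 0.69).

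Of 31 DNA replication genes, 28 had positive values, with a median of 0.21 against 0.02 for all genes. At an unadjusted p under 0.05, 9 were higher (29.0%, against 5.40%) and 0 lower, 19 did not overlap in the higher direction (61.3%, against 20.0%), and 0 were called. Gins1, a subunit of the replicative helicase complex, read 91.6 and 86.3 at 0 ng, 69.4 and 77.4 at 5 ng and 118 and 107 at 50 ng. Its log2 change was 0.56 ± 0.14 (adjusted p = 0.20). The helicase subunit Mcm5 read 497 and 437 at 5 ng and 679 and 531 at 50 ng, the licensing inhibitor geminin, Gmnn, 182 and 175 at 5 ng and 261 and 206 at 50 ng, and the chromatin assembly factor Chaf1b 87.8 and 100.5 at 5 ng and 117 and 132 at 50 ng. Their log2 changes were 0.34 ± 0.12, 0.36 ± 0.12 and 0.38 ± 0.12. Of 17 germ cell markers 12 were positive as well, with a median of 0.11; their median level, each gene's mean over the 4 arrays subtracted, was 0.01 and -0.11 on the 5 ng arrays and 0.09 and -0.01 on the 50 ng arrays. The part of germ cell RNA in the replication values was not tested.

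The 50 ng arrays did not contribute equally to this median. After each gene's mean over the 4 arrays was subtracted, the list's median log2 level was -0.08 and -0.14 on the 5 ng arrays and 0.16 and 0.02 on the 50 ng arrays. Without replicate 1 of the 50 ng group the median change was 0.14 and 2 genes were higher at an unadjusted p under 0.05, against 3.85% of all genes. Without replicate 2 of that group the median was 0.27 with 11 higher genes. Without replicate 1 or 2 of the 5 ng group it was 0.25 with 6 or 0.19 with 3.

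The 36 cell division genes, which act in mitosis, had a median of 0.08 and 0 calls. Past an unadjusted p of 0.05, 0 were lower and 2 were higher (5.56%, close to the 5.40% of all genes). The 2 were Hmmr and Pbk, with log2 changes of 0.43 ± 0.15 and 0.30 ± 0.12. Among 25 G1 regulators, 2 were higher (8%, against 5.40% of all genes) and 2 lower (8%, against 3.94%), with 0 calls. The cell cycle inhibitor Cdkn1b (p27) read 121 and 137 at 5 ng and 56.2 and 102 at 50 ng, a log2 change of -0.61 ± 0.23 (adjusted p = 0.45). The S phase activator E2f1 had 0.39 ± 0.17, and 1 of its 2 probe sets above the filter had that sign. E2f5, a repressive member of that family, read 111 and 81.4 at 0 ng, 466 and 762 at 5 ng and 270.4 and 534 at 50 ng. On this probe set the 5 and 50 ng arrays overlapped and all 4 stood above the untreated ones. The other 2 of the 3 E2f5 probe sets did not share that rise, and had the opposite sign between 5 and 50 ng. Their means at 0, 5 and 50 ng were 167, 167 and 176 on 1 of them and 159, 129 and 138 on the other.

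Of 47 extracellular matrix genes, 13 had positive values, and the median was -0.13; 8 were lower at an unadjusted p under 0.05 (17.0%, against 3.94%), 0 were higher and 0 called. Lamc1, a laminin chain of basement membranes, read 643 and 572 at 0 ng, 729.8 and 691 at 5 ng and 575 and 494 at 50 ng, a log2 change of -0.42 ± 0.12 (adjusted p = 0.28). Nid1, nidogen, which links laminin to collagen IV, and Efemp1, a fibulin, had -0.19 ± 0.08 and -0.29 ± 0.11. Here too the 50 ng arrays differed, with a median level of -0.13 on replicate 1 and 0.02 on replicate 2, against 0.08 and 0.05 on the 5 ng arrays. Without replicate 1 of the 50 ng group 3 genes were lower and the median was -0.05; without replicate 2, 15 were lower and the median was -0.16. Without either 5 ng array 4 were lower.

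Fibroblast markers were low on the same array. The summed signal of 15 such markers was 15936 and 16464 on the 5 ng arrays and 13114 and 16204 on the 50 ng arrays, so replicate 1 of 50 ng was the lowest. The median change of the 15 was -0.14, and 0.02 without that array, and 2 were lower at an unadjusted p under 0.05, against 0 without it. Without replicate 2 of 50 ng, 8 were lower (53.3%) and the median was -0.30, and without replicate 1 or 2 of 5 ng 1 or 0 were lower. The matrix and fibroblast lists share genes such as Col1a1, and the part of fibroblast RNA in the matrix result was not tested. Of 17 matrix proteases and inhibitors, 1 was higher, Serpina5, and 1 lower, the metalloprotease inhibitor Timp2, with -0.30 ± 0.08 and all 5 probe sets of that sign.

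**Figure D4:**
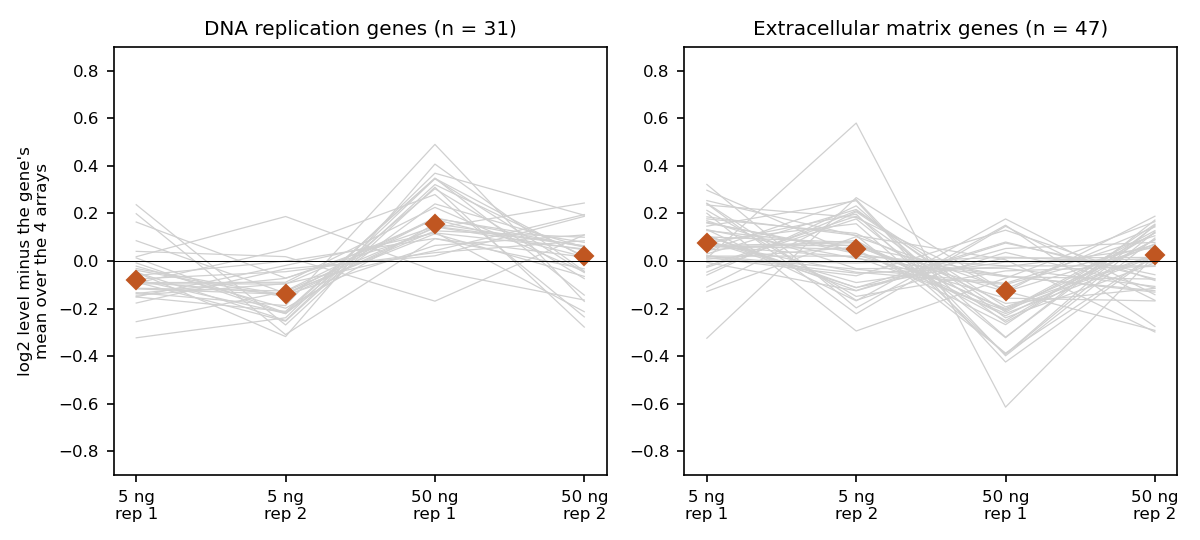
Level of each DNA replication gene (left, 31 genes) and extracellular matrix gene (right, 47 genes) on the 4 arrays, as log2 level minus the gene's mean over the 4 arrays; grey lines join the values of a gene and diamonds are the list medians. Replicate 1 of the 50 ng group has the highest replication median, 0.16, and the lowest matrix median, -0.13, while replicate 2 lies at 0.02 in both.

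The called genes were set beside the genes they work with, in lists made after those calls were known. Among 26 genes of mannose and dolichol-linked glycan synthesis, Pmm1 was the only call. Its paralog Pmm2 read 164 and 137 at 5 ng and 177 and 162 at 50 ng, a log2 change of 0.17 ± 0.12, and the glucosyltransferase gene Alg8 and the dolichol-phosphate-mannose subunit Dpm2 had 0.22 ± 0.10 and 0.20 ± 0.09. The list's median was -0.01. Among 21 RNA polymerase III subunits, Crcp was the only call, and the median was 0.04. The subunits Polr3g and Polr3f had values of opposite sign, 0.31 ± 0.13 and -0.30 ± 0.12, but 2 of 4 Polr3f probe sets above the filter were lower. The peptide receptor partners of Crcp, Calcrl and Ramp1, had values of -0.32 ± 0.26 and -0.17 ± 0.10.

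Rpl39 stood apart from the other ribosomal proteins in its change. Its signal was small beside that list: 62.7 to 194 on the 4 arrays, where the 47 tested genes summed to 222970 to 243440. What this probe set reads was not tested. The other 46 of the 47 tested lay between -0.08 (Rpl13a) and 0.22 (Rps6), and the list's median was 0.02. Of 8 CITED proteins and partners, Cited1 was the only call, and p300 itself, Ep300, had a log2 change of 0.12 ± 0.12. Of 4 histidine genes tested, Uroc1 was the only call, and Hdc, which turns histidine into histamine, had -0.12 ± 0.17. A second Hdc probe set read 20.0 and 38.9 at 5 ng and 5.33 and 3.54 at 50 ng, the latter under the filter's signal, a log2 change of -1.10 with the same sign.

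Of 20 cholesterol synthesis genes, 0 were called and 1, Dhcr7, was lower at an unadjusted p under 0.05, with -0.34 ± 0.14. Of 19 genes of glycolysis and lactate, the fuel that Sertoli cells give to germ cells, 0 were called and 1 was higher, the glycolytic regulator Pfkfb3, with 0.67 ± 0.30 at low signals of 23.0 and 28.7 at 5 ng and 45.3 and 54.0 at 50 ng. Of 21 genes of heat shock and the unfolded protein response, 0 were called, 12 had positive values and the median was 0.01. Past an unadjusted p of 0.05, 0 were higher and 3 were lower (14.3%, against 3.94% of all genes). The 3 were the chaperones Pdia4, Sdf2l1 and Hsp90b1, with -0.53 ± 0.17, -0.41 ± 0.14 and -0.21 ± 0.08. Without 1 array of the comparison 1 to 3 were lower, with 1 when replicate 1 of the 5 ng group was left out. Of 12 immediate early genes, 0 were called and 0 were at an unadjusted p under 0.05 by limma.

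**Figure D5:**
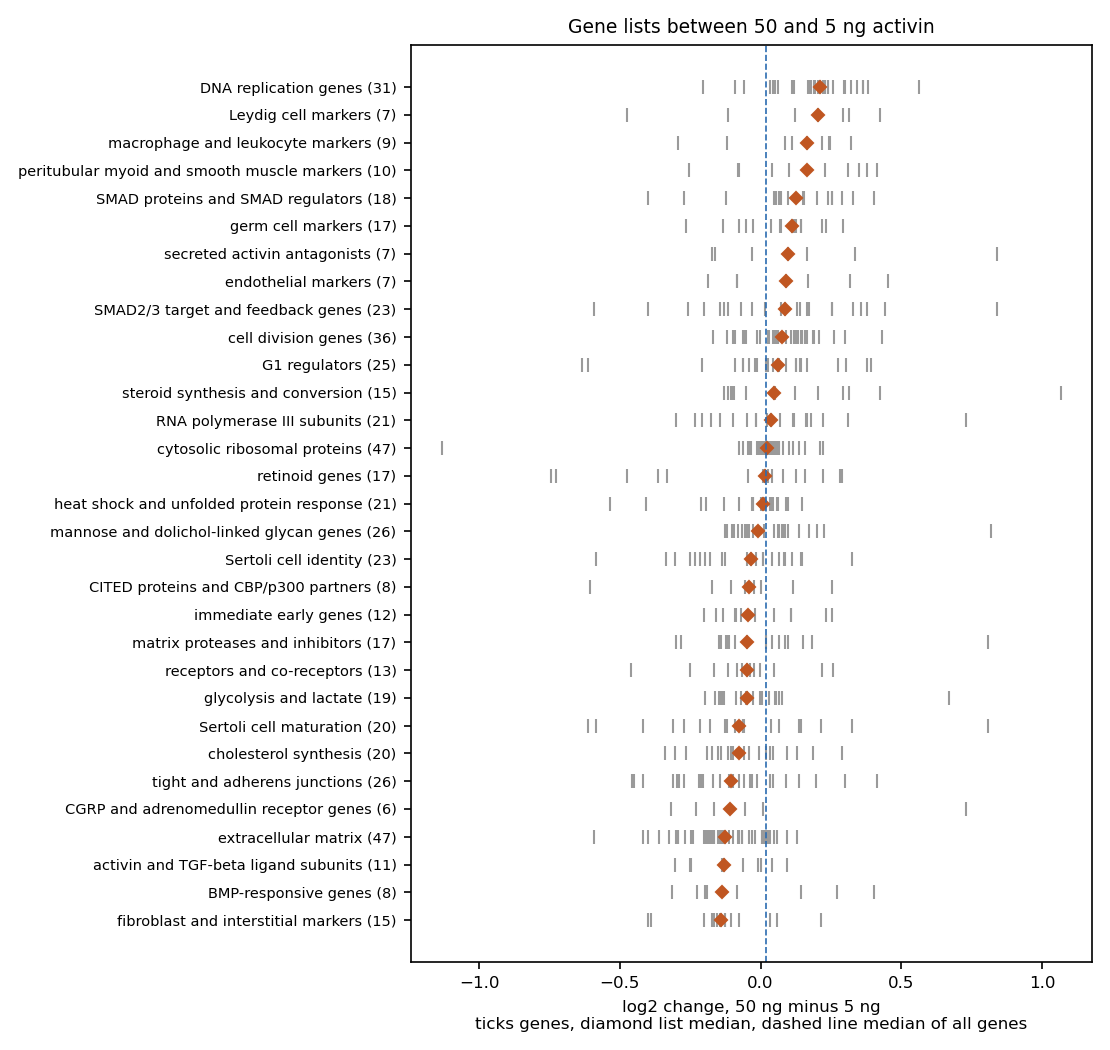
Log2 change from 5 to 50 ng (horizontal axis) of each tested gene (ticks) in the gene lists with at least 5 tested genes, with the list median (diamonds), the number of genes in brackets, and the median of all 12405 genes (dashed line, 0.02). DNA replication genes have the highest list median, 0.21, and fibroblast markers the lowest, -0.14.

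Markers of other cell types had few values past an unadjusted p of 0.05 and 0 calls, but their medians were not all near 0.02. The median was 0.20 for Leydig cell, 0.17 for macrophage, 0.16 for myoid and 0.09 for endothelial markers. Positive values were measured at 5 of 7, 7 of 9, 7 of 10 and 4 of 7 of them. Without 1 array of the comparison the median was 0.10 to 0.25 (Leydig cell), 0.05 to 0.18 (macrophage) and 0.01 to 0.25 (myoid). Of 17 germ cell markers 1 was higher, Uchl1, with 0.23 ± 0.07, and the summed signal was 3594 and 3514 on the 5 ng arrays and 3920.3 and 3739 on the 50 ng arrays. Of 10 peritubular myoid markers 1 was higher, Tagln, with 0.23 ± 0.09, while Acta2 had -0.08. Of 7 markers of Leydig cells, the steroid-making cells between the tubules, 1 was higher (Star) and 1 lower (Fads6, in 1 of its 2 probe sets). Of 7 endothelial and 9 macrophage markers, 0 were past that threshold, and the macrophage sum was 251 and 279 at 5 ng and 323 and 319 at 50 ng. What part these cells have in the differences between the doses was not tested.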

How the data were processed

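The members and gene lists were chosen with earlier results of these data known. Per the labels' protocols, Trizol-extracted RNA was amplified from its 3' end in one cycle and biotin-labelled for Affymetrix arrays. The authors deposited a linear intensity for each of 45101 probe sets on each array. Trimmed of 2% of values at each end, its mean was 125.001 on every array, so the authors had scaled the arrays alike. Their software was not given in the sources used here. All columns were used (0 left out).

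After 64 control probe sets were left out, signals were turned into log2(signal + 16), which understates changes at low signals, and quantile normalised over the 10 arrays. Probe sets with a mean under the 40th percentile (log2 5.10) were dropped. Symbols came from the platform annotation of 2016, updated through RefSeq (GRCm38.p6): of 45037 probe sets 34945 had 1 symbol, 932 several and 9160 none, and only the first were named. Each gene was represented by its brightest probe set on average over the 10 arrays. All 5 groups were fitted with limma 3.58.1 in R 4.3.3 (eBayes with an intensity trend, 5 residual degrees of freedom before moderation, two-sided p adjusted by Benjamini-Hochberg). Every adjusted p is from limma. Arrays not overlapping means both as deposited and as normalised. The fit was tested on simulated data. The number of arrays limits the precision.

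Named genes were all called genes; the 12 higher and 12 lower described in the text, clone names passed over; Inha, Inhba, Inhbb, Fst, Fstl3, Smad2, Smad3, Smad7, Skil, Ccnd2, Gja1, Serpina5, Amh, Hsd17b1 and Cited2; members of the 4 pathway lists; and the 4 lowest p-values of every other list. Rpl13a and the marker genes Sox9, Wt1, Ddx4, Acta2 and Pdgfra stand outside this rule. There were 26 alternatives to the main setting: other pseudocounts, normalisations, filters, sets of arrays, replicate blocks and probe set rules, and each array left out.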

Additional observations from a re-analysis of the deposited data

How the results depend on the processing

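The count of 5 called genes moved with most choices. It was 7 with a pseudocount of 1, 6 without further normalisation and 4 with a filter at the 60th percentile. It was 11 with a pseudocount of 64, 8 with array medians subtracted, 1 without the filter, 18 with the mean of a gene's probe sets and 3 with every probe set tested on its own. By limma it was 0 without the intensity trend (1080 genes at an unadjusted p under 0.05), 0 on the 4 arrays alone (1092) and 0 with these 4 also normalised alone (1095). It was 1 on the 6 arrays of 6 dpp and 2 without any 0 ng array. Leaving out 1 array gave 0 to 7: 0 without replicate 1 of 5 ng (912 at an unadjusted p under 0.05), 1 without its replicate 2, 2 without replicate 1 of 50 ng and 7 without its replicate 2, where 1 of the 5 genes stayed. It gave 2 without any single 0 ng array of either age, and 5 without either 15 dpp array with 5 ng, where 2 of the 5 genes stayed. Pmm1 was called in 21 of 25 alternatives, Cited1 in 13, Rpl39 in 9, Uroc1 in 11 of 24 and Crcp in 8 of 25, each with its sign kept. The causes were not tested.

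Replicates share numbers in the titles, but with 2 pairs these do not show that the samples are paired. The replicate 2 minus replicate 1 differences at 5 and 50 ng correlated at 0.19 across genes. With the replicate number as a block the count was 8 over all arrays, 141 within each age and 219 in the 4 arrays alone, each with the 5 genes among the calls.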

Other observations

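Some probe sets that did not stand for their gene were high on the 5 ng arrays alone. They were chosen after their values were seen, from the test of all 27022 probe sets, in which limma called 3. A probe set of Nudt21, which encodes a factor that sets where messenger RNAs are cut and polyadenylated, read 13.2 and 18.8 at 0 ng, 135 and 146 at 5 ng and 3.16 and 29.3 at 50 ng. Its log2 change from 5 to 50 ng was -2.42 ± 0.29, with an adjusted p of 0.028 by limma over all probe sets. A second Nudt21 probe set read 32.7 and 42.4 at 0 ng, 166 and 172 at 5 ng and 10.5 and 50.9 at 50 ng. The 2 other Nudt21 probe sets did not have this pattern; the brighter read 1475 and 1448 at 0 ng, 1388 and 1392 at 5 ng and 1480.5 and 1514 at 50 ng.

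A probe set of Pabpc1, which encodes the main protein that binds poly(A) tails in the cytoplasm, read 43.8 and 69.1 at 0 ng, 207 and 194 at 5 ng and 40.04 and 66.2 at 50 ng, a log2 change of -1.66 ± 0.18 (adjusted p = 0.016 by limma). The Pabpc1 probe set that stood for the gene read 3927 and 3897 at 5 ng and 4027 and 4182 at 50 ng. A probe set of Tmtc3 read 11.5 and 11.04 at 0 ng, 71.4 and 65.2 at 5 ng and 13.9 and 15.1 at 50 ng, with an adjusted p of 0.062. In each case both 5 ng arrays stood above the 4 other arrays of 6 dpp. For Nudt21 the second probe set given above had the step too, and its remaining probe sets did not. For Pabpc1 and Tmtc3 no other probe set shared it. What these probe sets read was not tested.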
